A study of Mus musculus with 9 samples.

Results

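The 38 genes described here are genes of G2 and mitosis: cyclins A and B with their kinase Cdk1, the mitotic kinases, the anaphase machinery, the kinetochore, the spindle, the cytokinetic apparatus and a pair of widely used proliferation markers. They were chosen by symbol for these roles and make up 38 of the 55322 genes in the deposited table. All 38 were listed in it, and all 38 had a mean FPKM of at least 0.05 over the 6 libraries of each comparison. RNA sequencing was done on 3 libraries from each of 3 groups. CD11b+ B cells and CD11b- B cells were sorted from the BM of wild-type C57BL/6 mice 48 h after an i.p. injection of LPS at 5 mg/kg, and both groups had therefore been exposed to LPS. Peritoneal macrophages (PMs, CD11b+F4/80+) were sorted from untreated wild-type mice, so that PMs differed from both B cell groups in cell type, tissue and treatment at once. Before the B cells were sorted, BM cells carrying CD3, CD4, CD8, Gr-1, NK1.1 or TER119 had been removed, a step aimed at T, NK, granulocytic and erythroid cells. The labels do not say whether the 3 libraries of a group came from separate mice. The study shows FPKM of these groups with SDs, the form its methods keep for biological replicates, and the p-values below measure the spread between these libraries. BM B cells without LPS were not analysed here.

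A cell that divides makes the proteins of mitosis in a burst in G2, under the transcription factors B-Myb and FoxM1, and degrades most of them again as it leaves mitosis through the anaphase-promoting complex (APC/C). Transcripts of these genes are therefore abundant in dividing cells and scarce in resting ones. In the BM, dividing B lineage cells include the large precursors that carry the pre-B cell receptor and activated B cells that become plasmablasts, whereas mature B cells and resident PMs mostly rest.

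Promoters of mitotic genes are known to carry a cell cycle homology region (CHR), a hexamer bound by the MuvB complexes, and CCAAT boxes bound by NF-Y upstream of it. The 100 bases before the RefSeq start are shown for 6 genes, because the members were chosen for their roles and not for any sequence, and these windows are a feature that the choice did not use. Of these, 5 were all the genes with a single window that held a hexamer wholly within 60 bases before the start and a CCAAT box. Ccnb1 is shown beside them because it had CCAAT boxes and no hexamer. Capitals mark TTTGAA or TTCGAA (with TTCAAA, as read on the other strand) and CCAAT (with ATTGG), and the windows in GRCm38.p6 are chr2:164769829-164769928 on the plus strand for Ube2c, chr4:118437344-118437443 on the minus strand for Cdc20, chr10:69352913-69353012 on the minus strand for Cdk1, chr11:99024190-99024289 on the minus strand for Top2a, chr19:37376282-37376381 on the plus strand for Kif11 and chr13:100786487-100786586 on the minus strand for Ccnb1. Starts are those of the RefSeq promoter table, and the start it gives for Top2a lies inside the gene as positioned in the RefSeq gene table.
Ube2c: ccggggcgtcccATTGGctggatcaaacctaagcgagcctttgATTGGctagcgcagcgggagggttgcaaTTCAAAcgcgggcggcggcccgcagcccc
Cdc20: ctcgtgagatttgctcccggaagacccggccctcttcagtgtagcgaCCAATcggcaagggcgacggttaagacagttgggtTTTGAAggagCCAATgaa
Cdk1: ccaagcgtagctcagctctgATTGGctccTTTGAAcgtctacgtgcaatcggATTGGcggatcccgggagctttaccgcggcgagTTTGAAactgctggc
Top2a: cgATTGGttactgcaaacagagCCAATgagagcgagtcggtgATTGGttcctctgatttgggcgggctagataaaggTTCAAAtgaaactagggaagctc
Kif11: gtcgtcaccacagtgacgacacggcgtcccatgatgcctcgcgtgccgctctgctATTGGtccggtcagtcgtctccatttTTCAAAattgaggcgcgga
Ccnb1: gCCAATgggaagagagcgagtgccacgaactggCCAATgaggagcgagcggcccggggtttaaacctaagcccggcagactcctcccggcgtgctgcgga

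RefSeq windows from 250 bases before to 50 after the start were found for 33 of the 38 genes (all but Ccna2, Foxm1, Aurkb, Tpx2 and Kif20a). Of these 33, 26 (78.8%) held TTTGAA or TTCGAA on either strand, beside 21.7% of 27025 genes with such a window. A CCAAT box was in 24 of them (72.7%, against 41.1% of all genes), and 22 (66.7%, against 8.61%) held a hexamer and a CCAAT box together. The matches lay close to the start. In 24 of the 33 (72.7%, against 6.12% of all genes) a hexamer began within 50 bases of it on either side, a limit drawn after the positions had been seen. Matches were counted on both strands and were allowed to overlap each other, and a match is a description of letters and not of binding. Melk, Mybl2, Birc5, Nuf2 and Nusap1 had neither motif in this window.

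**Figure D1:**
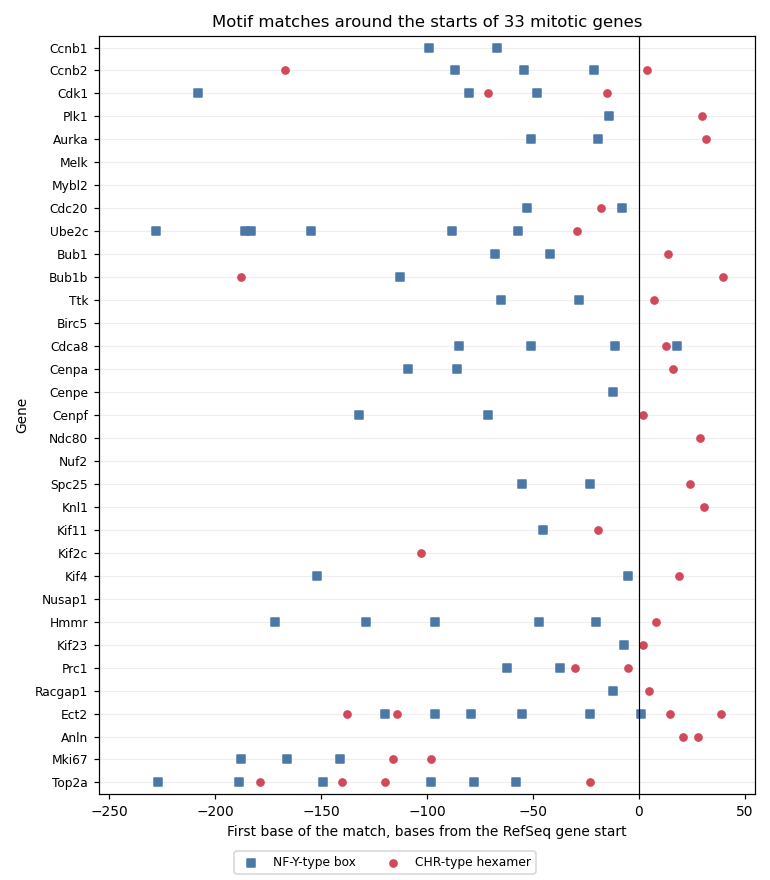
Positions of motif matches on either strand around the starts of the 33 mitotic genes with a RefSeq window; the x axis gives the first base of each match in bases from the start (0), circles are the hexamers TTTGAA or TTCGAA and squares are CCAAT boxes (Ect2 and Prc1 have 2 windows each, both plotted). In 24 of 33 genes a circle lies within 50 bases of the start, and in 23 of 33 a square lies within 120 bases before it (24.6% of all genes with a window).

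Libraries held between 18014658 and 35251215 reads on genes. All 10 B cell markers, Cd79a and Pax5 among them, had a mean of at least 1 FPKM in both B cell groups, and all 10 macrophage markers did in PMs. Library 3 of each B cell group stood apart from the others of its group. Igll1, a part of the surrogate light chain of B cell precursors, was at 0.472, 1.39 and 12.7 FPKM in CD11b+ B cells and 0.0277, 0.0132 and 53.9 in CD11b- B cells. The 12 precursor markers summed to 1397 FPKM in CD11b- library 3 against 411 and 406 in the other 2 CD11b- libraries, and to 626 FPKM in CD11b+ library 3 against 299 and 340.2. The counts between the B cell groups are therefore also given without library 3 of either group, a choice made after these values were seen. In bulk RNA, fewer dividing cells and less RNA of these genes per cell cannot be told apart.

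Mitotic genes were most abundant in CD11b+ B cells, intermediate in CD11b- B cells and scarce in PMs. The summed FPKM of the 38 genes was 881, 795 and 254 in CD11b+ libraries 1, 2 and 3, 433, 287 and 144 in the CD11b- libraries, and 40.0, 24.2 and 28.5 in PMs; in the following, values of a group are always in the order of libraries 1, 2 and 3. CD11b+ libraries 1 and 2 lay above all others, CD11b+ library 3 lay below the first 2 CD11b- libraries, and every B cell library lay above every PM library. Reads on the 38 genes were 0.122% to 0.393% of all reads in CD11b+ B cells, 0.0677% to 0.201% in CD11b- B cells and 0.0113% to 0.0238% in PMs. By mean FPKM, 37 of the 38 genes had the order CD11b+ B cells, CD11b- B cells, PMs, and the exception was Racgap1. The highest mean in CD11b+ B cells was that of Ccnb2 (60.6 FPKM) and the lowest that of Anln (2.19), and 29 of the 38 genes had a mean under 1 FPKM in PMs.

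**Figure D2:**
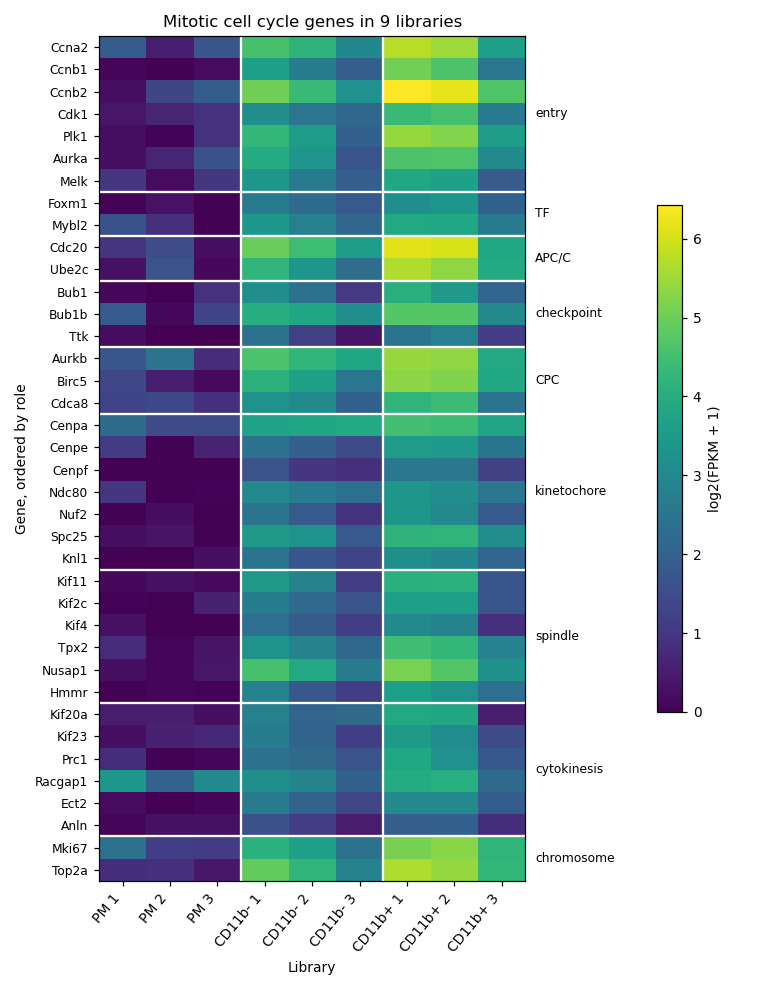
Expression of the 38 mitotic genes as log2(FPKM + 1) (color) in the 9 libraries (columns), with the genes in rows by role: mitotic entry, transcription factors (TF), APC/C, checkpoint, chromosomal passenger complex (CPC), kinetochore, spindle, cytokinesis and chromosome. The columns of CD11b+ libraries 1 and 2 are the brightest, CD11b+ library 3 resembles the CD11b- columns, and the PM columns are dark, with Racgap1 the brightest row in them at a mean of 6.73 FPKM.

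The first comparison asked whether CD11b+ B cells differed from CD11b- B cells after LPS. All 38 genes had a log2 fold change above 0 (higher in CD11b+ B cells), beside 55.1% of all genes tested. The median log2 fold change of the 38 genes was 0.92, on the scale of log2(FPKM + 1), which understates changes of low genes, against 0.03 over all 21778 genes tested. The ratio of mean FPKM ranged from 1.31 for Ndc80 to 3.32 for Ube2c, with a median of 2.12. None of the 38 genes passed an adjusted p of 0.05 in limma, beside 0.0689% of all genes called higher, and their adjusted p-values lay between 0.460 and 0.883. At an unadjusted p under 0.05, 11 of the 38 genes were higher in limma, against 4.65% of all genes. By other tests on the reads, edgeR called 0 of the 38 (0.269% of all genes), edgeR without a filter on low counts called 27 (1.11%) and DESeq2 called 4 (1.45%), namely Cenpe, Mki67, Ccnb2 and Cdk1. The groups did not overlap for 2 of the 38 genes, Cenpe and Mki67, against 8.63% of all genes that were higher without overlap.

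The libraries of both B cell groups spread widely, with a median coefficient of variation over the 38 genes of 54.7% in CD11b+ and 54.1% in CD11b- B cells. For all 38 genes, CD11b+ libraries 1 and 2 were above every CD11b- library, and CD11b+ library 3 was the lowest of its group. Its level lay within the range of the CD11b- libraries for 32 genes, below all of them for 4 and above all of them for 2. In CD11b- B cells library 1 was the highest for 37 genes and library 3 the lowest for 36. CD11b+ library 3 was higher than CD11b- library 3, which like it held precursor markers, for 33 of the 38 genes, with a median ratio of 1.66, and CD11b+ library 1 was higher than CD11b- library 1 for 38 of 38, with a median ratio of 1.83. Without CD11b+ library 3 all 38 genes were higher without overlap, beside 16.1% of all genes then tested, the median log2 fold change was 1.46, and 0 of 38 were called by limma (lowest adjusted p = 0.107, 35 at an unadjusted p under 0.05, beside 6.22% of all genes that were higher at that p). Without library 3 of either group the median was 0.99, limma called 0 of 38 (lowest adjusted p = 0.0747, 35 at an unadjusted p under 0.05, beside 5.87% of all genes), and edgeR called 20 of 38, beside 1.41% of all genes. Without CD11b- library 3 the median fell to 0.51, with 2 of 38 genes at an unadjusted p under 0.05, beside 3.17% of all genes.

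**Figure D3:**
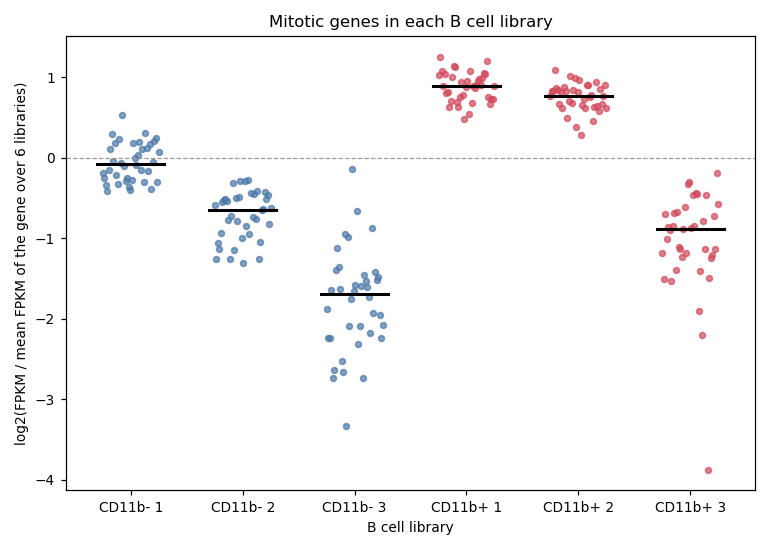
Level of each of the 38 mitotic genes in the 6 B cell libraries as log2 of its FPKM over its mean in these libraries; each point is 1 gene, bars are medians over genes, and the dashed line marks the mean. All 38 points of CD11b+ libraries 1 and 2 lie above those of the same genes in the CD11b- libraries, whereas CD11b+ library 3 lies within the CD11b- range for 32 genes.

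Markers of other cell types differed between the B cell groups in some lists and overlapped in others. Higher without overlap in CD11b+ B cells were 13 of 15 neutrophil, 5 of 10 plasma cell, 3 of 8 monocyte and 5 of 8 stem and progenitor markers. Of the last list, 1 of 8 was lower without overlap. The numbers higher were 3 of 12 for erythroid, 1 of 11 for T and NK cell and 0 of 12 for precursor markers, beside 8.63% of all genes tested. Neutrophil and granulocyte precursor markers summed to 669.7, 1599 and 218 FPKM in CD11b+ B cells and to 2.19, 3.18 and 1.99 in CD11b- B cells, with all 15 genes at a mean of at least 1 FPKM in the first group and 0 in the second, where Ctsg had no read. Plasma cell markers summed to 329, 291 and 706 against 124, 127 and 215, with 10 of 10 and 8 of 10 genes at a mean of at least 1 FPKM. Erythroid markers summed to 47.9, 50.2 and 39.5 against 25.7, 13.4 and 2.29, 4 of 12 genes being at a mean of at least 1 FPKM in each group; these 4 were the globins, while Klf1 stayed under 1 FPKM in all 6 libraries and Car1 had no read in CD11b- B cells. Macrophage markers summed to 334, 329 and 146 against 97.4, 104 and 125, with 7 and 3 of 10 genes at a mean of at least 1 FPKM. Every CD11b+ library was above every CD11b- library for 7 of these 10 (Adgre1, Csf1r, Itgam, Cd68, Timd4, Lyz2 and Cd14), beside 8.63% of all genes tested, and the groups overlapped for Mertk, Icam2 and Gata6. Itgam encodes CD11b, on which the groups were sorted, so its difference follows from the sort. Csf1r, the receptor for M-CSF, was at 3.56, 3.19 and 1.36 FPKM in CD11b+ B cells and 0.223, 0.174 and 0.130 in CD11b- B cells, and Lyz2, lysozyme, was at 261, 240.3 and 65.4 FPKM in CD11b+ B cells and 30.8, 30.1 and 42.2 in CD11b- B cells. Gata6, the factor of resident PMs, stayed under 1 FPKM in every B cell library. Monocyte markers summed to 684 to 726 against 466 to 630.1 (5 and 3 of 8 genes). T and NK cell markers summed to 15.9 to 22.3 against 11.6 to 21.1 (2 and 1 of 11 genes), Cd4, Cd8a, Ncr1 and Gzma having no read in CD11b- B cells. Stem and progenitor markers summed to 547 to 719 against 289 to 376 (2 and 1 of 8 genes), nearly all of it Ly6a, while Cd34 stayed under 1 FPKM. Of the 12 precursor markers, 7 and 9 had a mean of at least 1 FPKM, and their sums overlapped between the groups. In CD11b+ library 3 the mitotic genes were lowest and the sum of the plasma cell markers highest, whereas the neutrophil list was lowest there too. Much of the plasma cell sum in that library was Jchain, at 101, 83.9 and 449 FPKM in CD11b+ B cells. Sdc1, Xbp1, Tnfrsf17, Derl3, Fkbp11 and Slamf7 were also highest in CD11b+ library 3 of that group, whereas Prdm1, Irf4 and Mzb1 were highest in CD11b+ library 1. The part of these cell types in the levels of the mitotic genes was not tested.

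**Figure D4:**
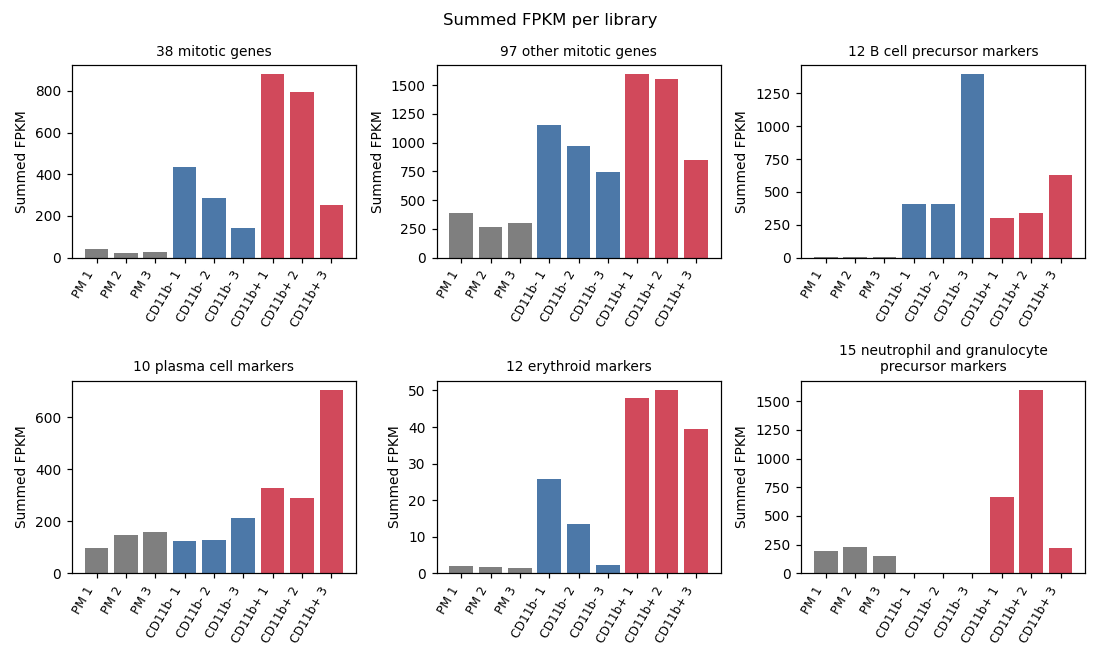
Summed FPKM per library (bars from 0; gray, PMs; blue, CD11b- B cells; red, CD11b+ B cells) of the 38 mitotic genes, 97 other mitotic genes and 4 marker lists. The mitotic sums were 881, 795 and 254 in CD11b+ B cells and 433, 287 and 144 in CD11b- B cells, and the precursor markers are highest in CD11b- library 3 (1397).

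Against PMs, nearly all of the 38 genes were higher in B cells of either kind. In CD11b+ B cells 36 of 38 genes rose past an adjusted p of 0.05 and 0 fell, beside 21.5% of all genes called higher. The median log2 fold change was 2.80, against 0.25 over the 22102 genes tested, and 37 of 38 genes were higher without overlap (34.3% of all genes). The genes not called were Racgap1 and Kif20a. In CD11b- B cells 35 of 38 rose and 0 fell, beside 25.8% of all genes, with a median of 1.96 against 0.24 over 20985 genes, and 37 of 38 did not overlap with PMs (36.1% of all genes). The genes not called were Racgap1, Anln and Ttk. Both comparisons share the PM libraries. Rescaling the libraries by median-ratio size factors shifted the median of all genes by -0.14 in the first and by -0.18 in the second of these comparisons, and 36 and 29 of the 38 genes were then called higher, beside 12.6% and 15.9% of all genes. Without 1 library at a time 32 to 37 genes were called in CD11b+ and 24 to 37 in CD11b- B cells, beside 14.7% to 22.2% and 19.3% to 28% of all genes, the lowest number coming without CD11b- library 2 and the highest, 37 in each comparison, without library 3 of the B cell group.

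**Figure D5:**
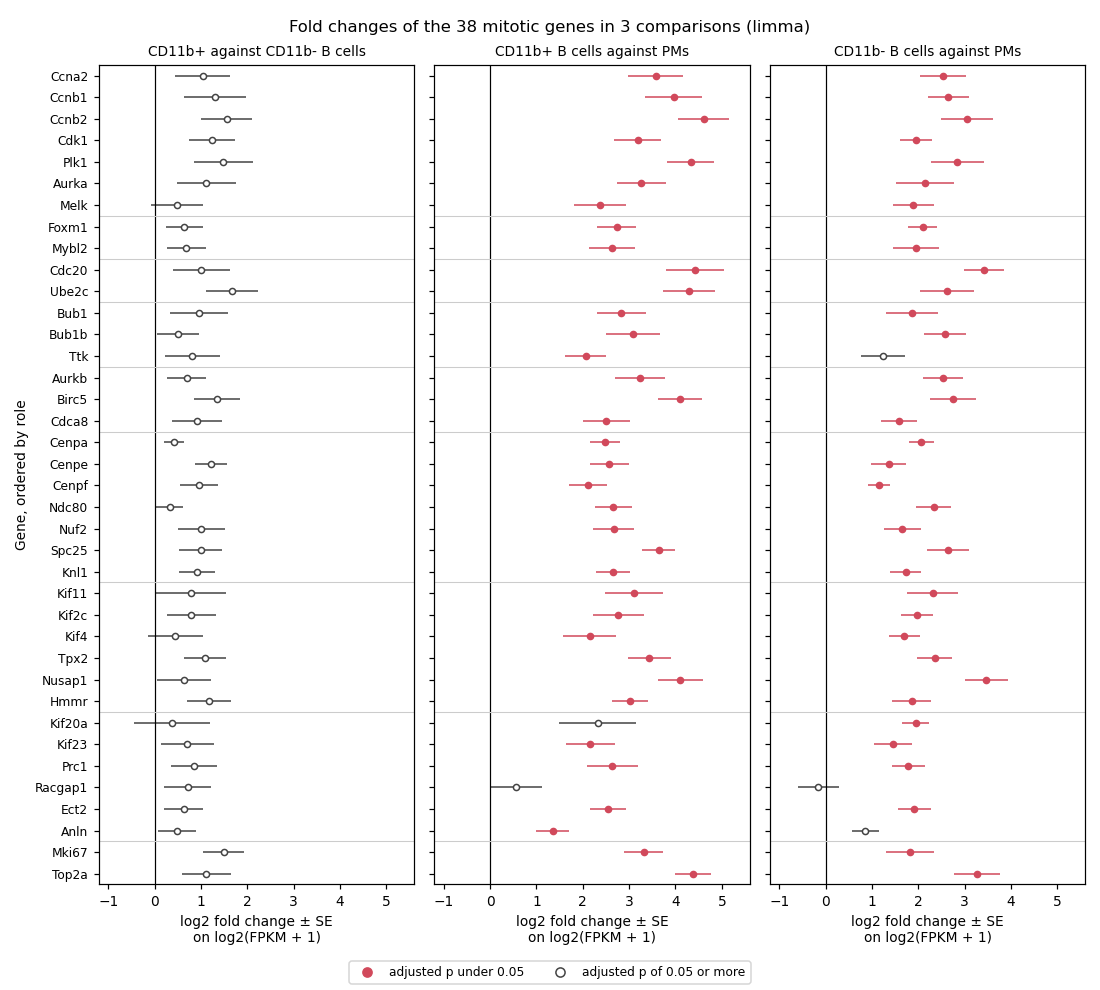
Log2 fold change (x axis, ± SE, on log2(FPKM + 1), limma with 3 libraries per group) of the 38 mitotic genes in the 3 comparisons; filled points passed an adjusted p of 0.05. All 38 points lie above 0 for CD11b+ against CD11b- B cells and none is filled, whereas 36 and 35 are filled against PMs.

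Entry into mitosis is set off by Cdk1 with cyclins A2, B1 and B2. Ccna2, cyclin A2, was at 52.2, 43.8 and 11.4 FPKM in CD11b+ B cells, 22.5, 17.1 and 6.96 in CD11b- B cells and 2.65, 0.453 and 2.31 in PMs. Ccnb1, cyclin B1, was at 32.2, 24.0 and 4.75 FPKM in CD11b+ B cells, 11.3, 5.63 and 2.84 in CD11b- B cells and 0.0790, 0.0244 and 0.141 in PMs. Its mean in PMs was the lowest of the 7 entry genes, and its ratios of means to PMs, 249 in the CD11b+ and 80.9 in the CD11b- group, were the highest of the 38 genes in both comparisons. Ccnb2, cyclin B2, was the most abundant of the 38 genes in CD11b+ B cells, at 85.1, 71.8 and 24.8 FPKM in CD11b+ B cells, 31.9, 19.4 and 8.52 in CD11b- B cells and 0.181, 1.54 and 2.72 in PMs. Its 2 highest libraries were CD11b+ 1 and 2, and CD11b+ library 3 fell between CD11b- libraries 1 and 2. Its log2 fold change was 1.55 ± 0.55 (SE) between the B cell groups (limma, adjusted p = 0.584) and 4.61 ± 0.55 for CD11b+ B cells against PMs (adjusted p = 0.000559), the largest of that comparison among the 38. Cdk1, the kinase itself, was at 19.5, 22.4 and 5.20 FPKM in CD11b+ B cells, 7.88, 4.79 and 3.38 in CD11b- B cells and 0.315, 0.590 and 0.894 in PMs, and differed between the B cell groups by 1.24 ± 0.50 (SE, adjusted p = 0.643).

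Plk1, the polo kinase of mitotic entry and chromosome segregation, was at 41.3, 36.5 and 11.1 FPKM in CD11b+ B cells, 18.1, 10.5 and 3.01 in CD11b- B cells and 0.177, 0.0467 and 0.924 in PMs. Aurka, the aurora kinase of centrosomes and spindle poles, was at 23.7, 24.4 and 7.29 FPKM in CD11b+ B cells, 14.6, 9.28 and 2.18 in CD11b- B cells and 0.197, 0.595 and 2.09 in PMs. In Aurka the gap between CD11b- B cells and PMs was narrow, since CD11b- library 3 with its 2.18 FPKM stood next to 2.09 in PM library 3. Melk, a kinase found in proliferating progenitors, had the smallest fold of this group between the B cells (ratio of means 1.61). All 7 entry genes passed the test against PMs in both comparisons, with median log2 fold changes of 3.57 for CD11b+ and 2.53 for CD11b- B cells, and their median ratio of means between the B cell groups was 2.81.

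Both transcription factors had means below the median of the 38 genes in CD11b+ B cells (11.3 FPKM). Foxm1, FoxM1, was at 8.27, 9.45 and 2.98 FPKM in CD11b+ B cells, 5.20, 3.75 and 2.47 in CD11b- B cells and 0.0386, 0.238 and 0.0258 in PMs. Mybl2, B-Myb, was at 14.1, 13.2 and 5.37 FPKM in CD11b+ B cells, 9.79, 5.94 and 3.37 in CD11b- B cells and 2.05, 0.813 and 0.0214 in PMs. For both, CD11b+ library 3 lay inside the range of the CD11b- libraries, and no B cell library overlapped with PMs. The ratio of means between the B cell groups was 1.81 for Foxm1 and 1.71 for Mybl2, with adjusted p-values of 0.723 and 0.714 in limma. Against PMs the log2 fold change of Foxm1 was 2.73 ± 0.42 (SE, adjusted p = 0.00207) in CD11b+ B cells.

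Exit from mitosis runs through the APC/C. Cdc20, its coactivator at anaphase, was at 70.1, 64.6 and 13.3 FPKM in CD11b+ B cells, 30.2, 20.5 and 11.3 in CD11b- B cells and 0.981, 1.87 and 0.186 in PMs. Ube2c, the E2 enzyme that starts the ubiquitin chains of the APC/C, lies at GRCm38.p6 chr2:164769929-164772902 and was at 49.4, 39.8 and 14.1 FPKM in CD11b+ B cells, 17.9, 9.38 and 3.89 in CD11b- B cells and 0.214, 2.12 and 0.0953 in PMs. Ube2c had the largest change of the 38 genes between the B cell groups, 1.67 ± 0.57 on the log2 scale (SE, adjusted p = 0.559), and the largest ratio of means, 3.32. Even so CD11b+ library 3 was below CD11b- library 1 and above the other 2 CD11b- libraries. Against PMs, Cdc20 rose by 4.42 ± 0.63 (SE, adjusted p = 0.00137) in CD11b+ B cells and by 3.42 ± 0.44 (SE, adjusted p = 0.000862) in CD11b- B cells.

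The spindle checkpoint holds the APC/C back until every chromosome is attached. Bub1, its kinase at the kinetochore, was at 15.4, 9.88 and 3.25 FPKM in CD11b+ B cells, 8.24, 4.25 and 1.11 in CD11b- B cells and 0.102, 0.00786 and 0.888 in PMs. Bub1b, which encodes BubR1 of the mitotic checkpoint complex, was at 25.6, 25.8 and 7.21 FPKM in CD11b+ B cells, 15.1, 12.7 and 8.21 in CD11b- B cells and 2.51, 0.0961 and 1.47 in PMs. Ttk, the kinase Mps1 at the head of the checkpoint, was at 4.55, 5.93 and 1.25 FPKM in CD11b+ B cells, 4.26, 1.33 and 0.292 in CD11b- B cells and 0.169, 0 and 0.0101 in PMs. CD11b+ library 3 was the lowest of all 6 B cell libraries for Bub1b, and fell between the CD11b- libraries for Bub1 and Ttk. Ttk varied more in CD11b- B cells than any other member (coefficient of variation 105%) and was not called there against PMs (1.25 ± 0.47, SE, adjusted p = 0.0768), whereas all 3 checkpoint genes passed in CD11b+ B cells. Between the B cell groups the ratio of means was 2.10 for Bub1, 1.63 for Bub1b and 1.99 for Ttk.

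The chromosomal passenger complex corrects wrong attachments and then moves to the midzone. Aurkb, its kinase, was at 42.6, 40.4 and 13.7 FPKM in CD11b+ B cells, 23.4, 17.8 and 12.7 in CD11b- B cells and 2.32, 4.46 and 0.757 in PMs. Birc5, survivin, was at 38.8, 36.1 and 13.1 FPKM in CD11b+ B cells, 16.5, 11.8 and 4.72 in CD11b- B cells and 1.58, 0.453 and 0.117 in PMs. For Birc5 CD11b+ library 3 was between CD11b- libraries 1 and 2, and for Aurkb it was between CD11b- libraries 2 and 3. Birc5 had the larger difference between the B cell groups, 1.34 ± 0.50 (SE, adjusted p = 0.614), against 0.69 ± 0.42 (SE, adjusted p = 0.714) for Aurkb. Cdca8, borealin, had means of 14.1, 6.31 and 1.31 FPKM in CD11b+ B cells, CD11b- B cells and PMs. All 3 subunits passed the test against PMs in both kinds of B cell.

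At the centromere and kinetochore the genes did not all follow the same pattern. Cenpa, the histone H3 variant of the centromere at GRCm38.p6 chr5:30666877-30674837, was at 21.7, 20.4 and 12.4 FPKM in CD11b+ B cells, 12.1, 12.8 and 14.1 in CD11b- B cells and 3.84, 1.80 and 1.73 in PMs. Its CD11b- libraries lay closer together than those of any other member (coefficient of variation 7.95%, against a median of 54.1% over the 38 genes), and library 3 was the highest of them, whereas it was the lowest for 36 of the 38 genes. Cenpe, the kinetochore motor at GRCm38.p6 chr3:135212563-135273540, was at 10.6, 10.2 and 4.69 FPKM in CD11b+ B cells, 4.36, 2.90 and 1.83 in CD11b- B cells and 1.15, 0.0318 and 0.569 in PMs. All 3 CD11b+ libraries of Cenpe were above all CD11b- libraries, and its log2 fold change of 1.21 ± 0.35 (SE) had the smallest adjusted p of the 38 genes (limma, adjusted p = 0.460). Cenpf, a large coiled-coil protein of the outer kinetochore, was at 4.94, 4.97 and 1.40 FPKM in CD11b+ B cells, 2.11, 1.03 and 0.851 in CD11b- B cells and 0.0324, 0.0177 and 0.00963 in PMs.

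Ndc80, a subunit of the complex that binds microtubules, was at 9.50, 7.94 and 4.74 FPKM in CD11b+ B cells, 7.40, 5.34 and 4.13 in CD11b- B cells and 1.03, 0.00527 and 0.0458 in PMs. It had the smallest difference between the B cell groups of the 38, 0.33 ± 0.29 (SE, adjusted p = 0.727), and CD11b+ library 3 lay inside the CD11b- range. Nuf2 and Spc25, its partners in the Ndc80 complex, had ratios of means of 2.41 and 1.99, and Knl1, the scaffold for the checkpoint proteins, 2.20. All 7 kinetochore genes passed the test against PMs in both comparisons. Among them the log2 fold change of CD11b+ B cells against PMs ran from 2.11 for Cenpf to 3.64 for Spc25.

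Spindle motors and assembly factors were low in PMs, with means of 0.0497 to 0.363 FPKM. Kif11, the Eg5 motor that pushes the poles apart, was at 15.8, 16.1 and 2.31 FPKM in CD11b+ B cells, 9.91, 6.35 and 1.29 in CD11b- B cells and 0.0967, 0.216 and 0.120 in PMs. Tpx2, which activates aurora A on the spindle, was at 20.9, 18.2 and 6.17 FPKM in CD11b+ B cells, 8.67, 6.30 and 3.51 in CD11b- B cells and 0.748, 0.0878 and 0.254 in PMs. Hmmr, a spindle pole protein, was at 11.3, 8.81 and 4.12 FPKM in CD11b+ B cells, 6.21, 2.37 and 1.26 in CD11b- B cells and 0.0307, 0.0820 and 0.0365 in PMs. For these 3 genes CD11b+ library 3 was between CD11b- libraries 2 and 3 (Kif11 and Tpx2) or between 1 and 2 (Hmmr). Nusap1, a microtubule binding protein, was at 34.3, 25.1 and 8.31 FPKM in CD11b+ B cells, 22.7, 13.7 and 5.53 in CD11b- B cells and 0.205, 0.0675 and 0.305 in PMs and had the largest change of CD11b- B cells against PMs, 3.47 ± 0.46 (SE, adjusted p = 0.00102). Kif2c, which depolymerizes microtubules at the centromere, and Kif4, a chromosome motor, had ratios of means between the B cell groups of 2.21 and 1.78. All 6 genes passed against PMs in both comparisons.

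The central spindle forms between the separating chromosomes and places the contractile ring. Kif23, the motor of centralspindlin, was at 10.2, 7.72 and 1.76 FPKM in CD11b+ B cells, 5.55, 3.15 and 1.30 in CD11b- B cells and 0.211, 0.511 and 0.659 in PMs. Racgap1, its partner in centralspindlin at GRCm38.p6 chr15:99620496-99651656, was at 14.4, 15.4 and 3.67 FPKM in CD11b+ B cells, 8.18, 6.30 and 2.97 in CD11b- B cells and 9.75, 3.03 and 7.41 in PMs. Racgap1 alone of the 38 had PM levels that overlapped with both B cell groups, and its log2 fold change was 0.56 ± 0.55 (SE, adjusted p = 0.445) for CD11b+ and -0.15 ± 0.45 (SE, adjusted p = 0.800) for CD11b- B cells against PMs. In PMs Racgap1 stood at a mean of 6.73 FPKM and Kif23 at 0.460. Prc1, which bundles the midzone microtubules, was at 13.2, 8.55 and 2.41 FPKM in CD11b+ B cells, 4.38, 3.69 and 2.15 in CD11b- B cells and 0.776, 0.0250 and 0.0602 in PMs. Anln, anillin of the contractile ring, was the lowest of the 38 in both B cell groups, at 2.85, 2.92 and 0.783 FPKM in CD11b+ B cells, 2.04, 1.24 and 0.441 in CD11b- B cells and 0.0857, 0.227 and 0.224 in PMs. It rose against PMs in CD11b+ B cells by 1.35 ± 0.36 (SE, adjusted p = 0.0251), and was at 0.86 ± 0.30 (SE, adjusted p = 0.0568) in CD11b- B cells.

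Kif20a, the motor that carries the passenger complex to the midzone, was at 14.0, 12.96 and 0.458 FPKM in CD11b+ B cells, 5.99, 3.27 and 3.66 in CD11b- B cells and 0.409, 0.442 and 0.206 in PMs. CD11b+ library 3 was just above the PM libraries for this gene, below all CD11b- libraries, and differed from CD11b+ library 1 by a factor of 30.6. Its difference between the B cell groups, 0.38 ± 0.82 (SE, adjusted p = 0.883), turned to -0.20 without CD11b+ library 1 and to -0.15 without CD11b+ library 2. Ect2, the exchange factor that activates RhoA at the furrow, had means of 5.66, 3.31 and 0.0765 FPKM in CD11b+ B cells, CD11b- B cells and PMs.

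Mki67, which encodes Ki-67 on the surface of mitotic chromosomes, lies at GRCm38.p6 chr7:135689784-135716450 and was at 33.4, 37.9 and 17.6 FPKM in CD11b+ B cells, 16.3, 11.4 and 4.25 in CD11b- B cells and 4.17, 1.27 and 1.16 in PMs. All CD11b+ libraries were above all CD11b- libraries, library 3 by the smallest margin. Its log2 fold change was 1.49 ± 0.45 (SE, adjusted p = 0.493), and DESeq2 on the reads gave 1.45 (adjusted p = 0.0313). Top2a, the topoisomerase that untangles sister chromatids, was at 49.7, 41.3 and 18.0 FPKM in CD11b+ B cells, 28.3, 17.5 and 6.38 in CD11b- B cells and 0.807, 0.855 and 0.335 in PMs. Its level in CD11b+ library 3 was just above that in CD11b- library 2, and its change against PMs was 4.38 ± 0.39 (SE, adjusted p = 0.000106) in CD11b+ B cells.

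In the authors' gene models, exons of 11 of the 38 genes overlap exons of another gene, and the sources used here do not say whether reads were counted by strand, so reads of these pairs may be shared. They are Ccna2 (with Exosc9), Plk1, Foxm1, Cdc20 (Elovl1), Ube2c (Tnnc2), Cdca8, Kif4 (Pdzd11), Nusap1 (Oip5), Kif20a (Cdc23), Prc1 (Rccd1) and Top2a. The other 27 had no such overlap.

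Outside the 38, a list of 97 further mitotic genes was examined. Of these 97, 0 passed limma between the B cell groups (19 at an unadjusted p under 0.05 and higher, beside 4.65% of all genes tested), 85 had a log2 fold change above 0, beside 55.1% of all genes tested, and the median log2 fold change was 0.60. Every CD11b+ library was above every CD11b- library for 10 of the 97, a share near the 8.63% of all genes tested. Against PMs, 81 rose and 0 fell in CD11b+ B cells, with a median of 2.12, and 71 rose and 2 fell in CD11b- B cells, with a median of 1.43. Of all genes tested against PMs, 21.5% rose and 8.78% fell in CD11b+ B cells, and 25.8% rose and 11% fell in CD11b- B cells. Pbk, a mitotic kinase, rose by 4.56 and 3.95 on the log2 scale in CD11b+ and CD11b- B cells (adjusted p = 0.000206 and 0.000504). Cdc25b, the phosphatase that activates Cdk1, rose by 3.72 and 3.85 (adjusted p = 1.29e-05 and 7.67e-06), while its levels in the B cell groups overlapped, at 35.2, 46.4 and 32.4 FPKM in CD11b+ B cells and 37.6, 37.0 and 50.5 in CD11b- B cells. The 2 genes that fell in CD11b- B cells, named after their values were seen, were Pttg1, securin (-0.94, adjusted p = 0.00932), and Espl1, separase (-1.87, adjusted p = 0.00550). Espl1 was at 6.18, 5.98 and 2.15 FPKM in CD11b+ B cells, 2.89, 1.98 and 0.592 in CD11b- B cells and 9.08, 7.41 and 9.76 in PMs.

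Genes that act earlier in the cycle had median changes near 0 between the B cell groups, over members whose changes lay on both sides of 0. A list of 12 genes held G1 cyclins, their kinases, E2F factors and Myc. Of these 12, 0 passed limma in either direction (0 at an unadjusted p under 0.05 higher and 1 lower, beside 4.65% and 3.04% of all genes tested). A log2 fold change above 0 was seen in 6 and one below it in 6, and the median log2 fold change was 0.02. Ccne1, cyclin E1, had the largest difference of the 12, at 33.5, 29.7 and 17.0 FPKM in CD11b+ B cells, 22.5, 14.3 and 7.82 in CD11b- B cells and 0.313, 0.0257 and 1.43 in PMs (log2 fold change 0.86, adjusted p = 0.652). Ccnd2, cyclin D2, was at 64.2, 65.5 and 43.1 FPKM in CD11b+ B cells, 72.3, 67.2 and 40.2 in CD11b- B cells and 3.31, 6.63 and 2.63 in PMs. E2f2, an activator of S phase genes, was at 32.0, 44.0 and 40.0 FPKM in CD11b+ B cells, 49.8, 45.0 and 57.9 in CD11b- B cells and 0.352, 0.203 and 0.102 in PMs. Its log2 fold change was -0.39 (adjusted p = 0.644). The B cell groups did not overlap for E2f2, which was lower in CD11b+ B cells, and for Ccnd1 and E2f3, which were higher, beside 6.32% of all genes tested that were lower and 8.63% that were higher without overlap. E2f3, another E2F activator, was at 3.37, 4.17 and 3.35 FPKM in CD11b+ B cells and 2.20, 3.12 and 2.64 in CD11b- B cells (log2 fold change 0.34, adjusted p = 0.727). Against PMs, 6 of the 12 rose and 1 fell in CD11b+ B cells and 5 rose and 1 fell in CD11b- B cells, beside 21.5% and 8.78% of all genes tested in the first comparison and 25.8% and 11% in the second. Ccnd1, cyclin D1, was the one that fell, at 0.166, 0.170 and 0.416 FPKM in CD11b+ B cells, 0.0445, 0.0730 and 0.0397 in CD11b- B cells and 8.13, 14.5 and 7.11 in PMs, while Ccne1 rose by 4.17 in CD11b+ B cells (adjusted p = 0.000165).

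Of 22 CDK inhibitors, pocket proteins, MuvB subunits and factors of quiescence, 21 could be tested between the B cell groups and 0 passed limma (1 higher and 2 lower at an unadjusted p under 0.05, beside 4.65% and 3.04% of all genes tested), with 9 changes above 0, 12 below it and a median log2 fold change of -0.04. Cdkn2c, the inhibitor p18, was at 10.3, 14.3 and 7.21 FPKM in CD11b+ B cells, 7.07, 7.24 and 3.62 in CD11b- B cells and 2.98, 5.85 and 6.97 in PMs (log2 fold change 0.73, adjusted p = 0.644). Btg1, an antiproliferative factor of resting lymphocytes, was at 139, 154 and 177 FPKM in CD11b+ B cells, 201, 216 and 219 in CD11b- B cells and 16.5, 6.57 and 12.7 in PMs. Its log2 fold change was -0.44 (adjusted p = 0.529). Of the 21, 3 were lower in CD11b+ B cells without overlap (Btg1, Btg2 and Rbl2) and 0 were higher, beside 6.32% and 8.63% of all genes tested. Against PMs 10 rose and 4 fell in CD11b+ B cells and 11 rose and 4 fell in CD11b- B cells, beside the same shares of all genes tested (21.5% and 8.78%, then 25.8% and 11%). The genes that fell in both were Cdkn1a, Cdkn1c, Cdkn2b and Klf2. Cdkn1a, the inhibitor p21, was at 2.68, 3.72 and 2.99 FPKM in CD11b+ B cells, 2.56, 3.16 and 1.08 in CD11b- B cells and 30.6, 54.8 and 32.6 in PMs, a log2 fold change of -3.25 for CD11b+ B cells (adjusted p = 7.5e-05). PMs held the higher levels of p21 in every library and the lower levels of 37 of the 38 mitotic genes in every library.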

How the data were processed

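RNA was sequenced from 9 libraries, 3 each of CD11b+ B cells, CD11b- B cells and PMs, grouped by their labels. Libraries were made with a kit for full-length cDNA (SMART-seq HT). According to the submitters' processing notes, the authors used Trim Galore 0.4.4, Trimmomatic 0.36, cutadapt 1.16, STAR 2.7.2b, featureCounts 1.6.1 and DESeq2 1.20.0. The FPKM values that the authors deposited are counts of reads scaled by exon length and by the reads on genes in the library. A second deposited table holds a normalized signal (counts over the size factor of the library). It lists 11063 genes, the 38 members among them. Its genes had been selected by a p-value (test not given in the sources used here), and it served as an alternative only. Columns on clusters and annotation in it were not used.

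The methods name GRCm38 as the genome, whereas the positions in the tables are not those of GRCm38 annotation, so positions are from RefSeq (GRCm38.p6) by symbol. Reads per gene were recovered as FPKM times exon length over the step of the library, with all nonzero values (100%) whole to within 0.05, and gave the depths and the input of the count models. Reads of amplified cDNA are not molecules.

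The main test was limma 3.58.1 (R 4.3.3; lmFit, eBayes with trend, two-sided, Benjamini-Hochberg adjusted p under 0.05) on log2(FPKM + 1), fitted over all genes with a mean of at least 0.05 FPKM in the 6 libraries compared. Exact permutation tests of 3 against 3 cannot go below 0.1 and were not used. Alternatives were a pseudocount of 0.1, no filter or a minimum mean of 1 FPKM, all 9 libraries in one fit, replicate blocks, median-ratio scaling, eBayes without trend, edgeR 4.0.16 (quasi-likelihood) and DESeq2 1.42.0 on reads, and each library left out in turn. Limma, edgeR with its filter on low counts and DESeq2 were first checked on simulated data. The other settings were not checked in this way. The 38 genes and all lists were chosen with earlier results of these data known. Values of every library were given for 28 members chosen by role and for those with the largest or smallest change. From the other lists at most 4 genes past the threshold were to be named per comparison, by size of change. Genes named beyond this rule, with their values already known, include Cdc25b, Ccnd2, Ccne1, E2f2, E2f3, Btg1, Btg2, Rbl2, Cdkn2c and Cdkn1a between the B cell groups.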

Additional observations from a re-analysis of the deposited data

How the results depend on the processing

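Between CD11b+ and CD11b- B cells, the number of the 38 genes called higher was 0 in limma and stayed at 0 with each library left out. It was 4 in DESeq2, 27 in edgeR without a filter on low counts and 20 in edgeR without library 3 of either group (chosen after seeing the data), and the causes were not tested. The number of genes without overlap ranged from 2 to 38 with 1 library left out, beside 12.5% to 16.1% of all genes, being 38 without CD11b+ library 3 (16.1%) and 12 without CD11b- library 1 (12.5%). With 1 library left out, the log2 fold change of Kif20a between the B cell groups ranged from -0.20 to 1.48 and that of Racgap1 in CD11b- B cells against PMs from -0.56 to 0.20. A group left with 2 libraries was assumed to vary like the other. The mean summed FPKM in PMs, 30.9, became 39.55 after median-ratio scaling. Of the single-gene values under the other settings, 60 between the B cell groups gained the call, 10 and 14 gained and 16 and 64 lost it against PMs in CD11b+ and CD11b- B cells, and 5 turned direction, all of Kif20a or Racgap1.

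The replicate numbers in the titles were not taken as pairs, since the labels do not say that they mark pairs. Deviations of same-numbered B cell libraries correlated at 0.20, -0.01 and 0.17. Libraries 1 correlated best with each other and so did libraries 3, the pairs that the description numbers also join, whereas libraries 2 did not. With the title numbers as a replicate block, 2 of the 38 genes were called in limma (0.0735% of all genes called higher) and 7 in edgeR (0.321%). The numbers in the descriptions join 2 pairs of B cell libraries (1 with 1 and 3 with 3), so that 4 libraries bear on the difference, and with that replicate block 0 were called (0% of all genes) and Kif20a was at -0.29.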
